A study of Oryza sativa Japonica Group with 8 samples.

Results

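The ROS1 family of rice, 4 DNA glycosylases of active DNA demethylation named ROS1A, ROS1B, ROS1C and ROS1D, was followed in leaf RNA from seedlings grown with and without carbon dots. Its members were taken by gene identifier, and all 4 were present among the 55801 genes of the count table. The name ROS1C could be matched in the RefSeq gene table (assembly ASM3414082v1) by symbol, chromosome, span and neighbours, whereas the other 3 names rest on the identifiers chosen for the family. The study grew Nipponbare (Oryza sativa, Japonica Group) from sterilized seed on 1/2 MS, a mineral salt medium, and its title places the work in rice epigenetics. The CD group received carbon dots, carbon nanoparticles a few nanometres wide, at 0.56 mg/ml in the medium. The CK group, the control, received none. RNA-seq comprised 2 CD and 2 CK libraries, and the 4 bisulfite samples of the series were not analysed here. The seedlings are labelled 2 weeks old, while 3 weeks of growth are given for the treatment, so the age at harvest is uncertain. Whether replicates were separate plants is not stated, and the p-values below therefore reflect how far these libraries scatter, which may be technical.

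Cytosine methylation in plants is set by methyltransferases and can be removed without DNA replication by glycosylases of this family. These enzymes cut out the methylated base and nick the strand, after which base excision repair puts an unmethylated cytosine in its place. The founding member, ROS1 of Arabidopsis, keeps genes from being silenced, and its relative DEMETER acts in the central cell that gives rise to the endosperm. In rice, ROS1A is needed for fertile gametes and normal seed, and ROS1C, also called DNG701, limits methylation of the retrotransposon Tos17.

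The 4 gene models differ in length but have a series of exon lengths in common, in the same order. ROS1A (LOC_Os01g11900) lies on the plus strand of chromosome 1 from 6444319 to 6456076 and has 17 exons with 6474 bases in all. ROS1B (LOC_Os02g29230) lies on the plus strand of chromosome 2 from 17354840 to 17362939, with 15 exons and 4911 bases. ROS1C (LOC_Os05g37350) and ROS1D (LOC_Os05g37410) both lie on the minus strand of chromosome 5. ROS1C runs from 21843770 to 21856444 with 20 exons and 5544 bases. ROS1D runs from 21886293 to 21896908 with 21 exons and 5490 bases. Positions are as in the deposited count table, whose build is not given in the sources used here.

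ROS1C and ROS1D share 16 exon lengths in the same order. Among these are the first exon (120 bases) and the last (128 bases) of both genes. ROS1A shares 12 lengths in order with ROS1C and 12 with ROS1D, and ROS1B shares 8 with each of the other 3. All 4 genes hold exons of 91, 80, 85, 92, 69, 37, 83 and 37 bases in that order. These are not all consecutive: in each gene other exon sequence lies between the exons of 91 and 80 bases. The same holds between the exon of 83 bases and the last of 37. The likeness ends at the 3′ end of ROS1B. After the last of these lengths the other 3 members hold an exon of 58 (ROS1A), 34 (ROS1C) or 64 bases (ROS1D). Exons of 140, 66, 115 and 39 bases and a last exon follow in these 3, whereas ROS1B has a single exon of 294 bases. These are lengths and not sequences, so they do not measure identity between the members.

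**Figure D1:**
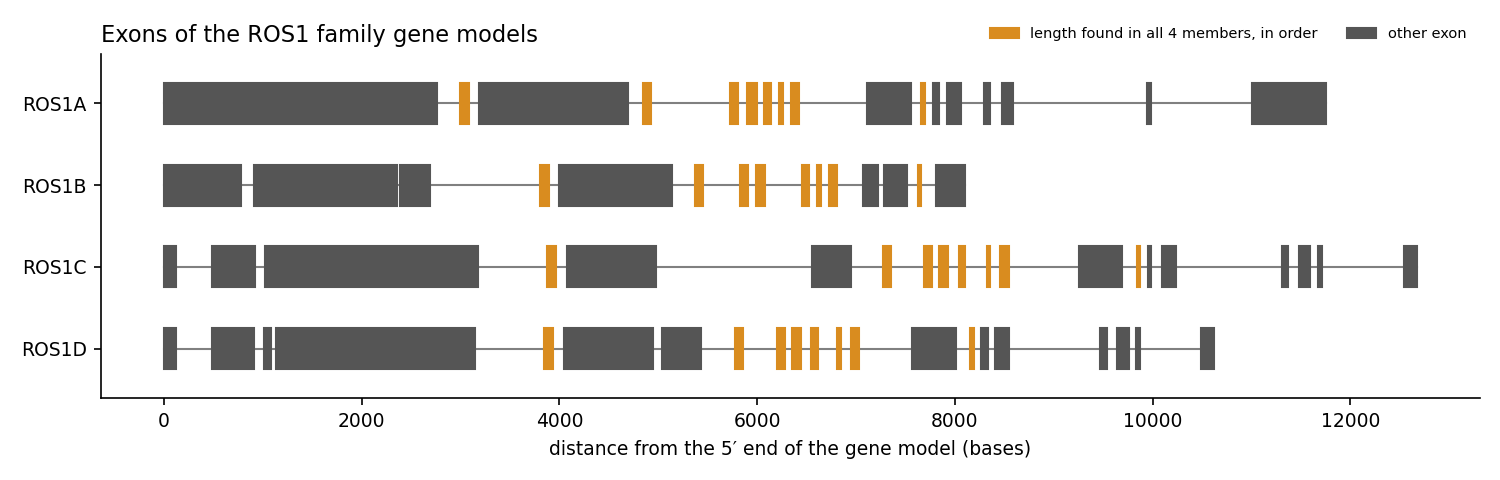
Exons of the 4 gene models against the distance in bases from the 5′ end of each model, drawn to scale with introns as lines. Orange exons carry the 8 lengths found in all 4 members in the same order. ROS1C and ROS1D start and end with exons of equal length, and ROS1B lacks the short exons near the 3′ end of the other 3.

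The 4 libraries held 49281927 to 80317398 counts and correlated across genes at 0.96 to 0.98 in log2 CPM (counts scaled to library size), with genes not being independent replicates. CD replicate 1 lay farthest out on principal component 1, which held 46.6% of the variance. Its score was -76.4, that of CD replicate 2 was 2.29, and those of CK replicates 1 and 2 were 51.3 and 22.8. Leaf markers were abundant but uneven. CAB2R, an antenna protein, was at 349 and 1260 TPM (counts per gene length, scaled to a common total) in CD replicates 1 and 2, against 2470 and 860 TPM in CK replicates 1 and 2. CAB1R, another antenna protein, was at 95.5 and 439 TPM in CD and 965 and 322 TPM in CK. The root transporter LSI1 was at 21.9 and 21.2 TPM in CD and 23.7 and 24.3 TPM in CK. NRAMP5, a manganese transporter abundant in roots, was at 8.07 and 12.8 TPM in CD and 11.8 and 18.4 TPM in CK. The shoot meristem gene OSH1 was at 0 in CD replicates 1 and 2, with 117 and 42 reads in CK replicates 1 and 2. Its log2 fold change (CD minus CK) was -9.21 by edgeR's quasi-likelihood test (unadjusted p = 0.00138, adjusted p = 0.46). With 0 reads in CD, and only 0.968 and 0.462 TPM in CK replicates 1 and 2, the size of this change depended on the method. It was -7.09 by limma on counts, -2.95 on log2(TPM + 0.1) and -0.76 on log2(TPM + 1). DESeq2 called OSH1 (adjusted p = 9.85e-05), as it did 1.95% of all genes tested. Whether the sampled tissue differed between the groups was not tested. In whole leaves fewer cells of a type and less RNA per cell cannot be told apart.

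ROS1A was by far the most abundant member in every library. It stood at 81.3 and 102.8 TPM in CD replicates 1 and 2, from 21646 and 17854 reads, and at 86.1 and 84.8 TPM in CK replicates 1 and 2, from 24822 and 18372 reads. The CD libraries lay on either side of the CK libraries, so the groups overlapped. In each library its TPM exceeded that of 95.2% to 96.5% of all genes in the table. ROS1A accounted for 87.2% and 89.8% of the summed TPM of the family in CD, and for 88.2% and 88.6% in CK.

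ROS1D was the second in level. It had 9.11 and 7.68 TPM in CD replicates 1 and 2 (2056 and 1131 reads), against 7.52 and 7.003 TPM in CK replicates 1 and 2 (1838 and 1287 reads). On the TPM scale both CD libraries lay above both CK libraries. On CPM with TMM scaling (edgeR's trimmed mean normalization) the groups overlapped, at 26.1 and 22.5 CPM in CD and 23.6 and 22.0 CPM in CK. The share of all genes tested whose groups do not overlap in TPM was not computed. On log2(TPM + 0.1) the median log2 fold change of all genes tested was 0.116, against 0.007 by edgeR with TMM scaling.

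ROS1C was the third. It had 2.85 and 3.99 TPM in CD replicates 1 and 2 (649 and 593 reads), against 3.99 and 3.91 TPM in CK replicates 1 and 2 (984 and 725 reads). CD replicate 1 was the low library, and the other three were nearly level. With TMM scaling ROS1C was at 8.23 and 11.8 CPM in CD and at 12.7 and 12.4 CPM in CK, so that the CD values were the lower pair, while in TPM the groups overlapped.

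ROS1B had 0 reads in all 4 libraries. A count of 0 allows up to 3 reads, which corresponds to 0.0149 and 0.0228 TPM in CD replicates 1 and 2 and to 0.0137 and 0.0182 TPM in CK replicates 1 and 2. Its transcript was therefore not detectable at this depth in either group, and no fold change was computed. The same held for 37.7% of all genes in the table, which had 0 counts in every library. These limits and the intervals on counts cover counting error only.

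**Figure D2:**
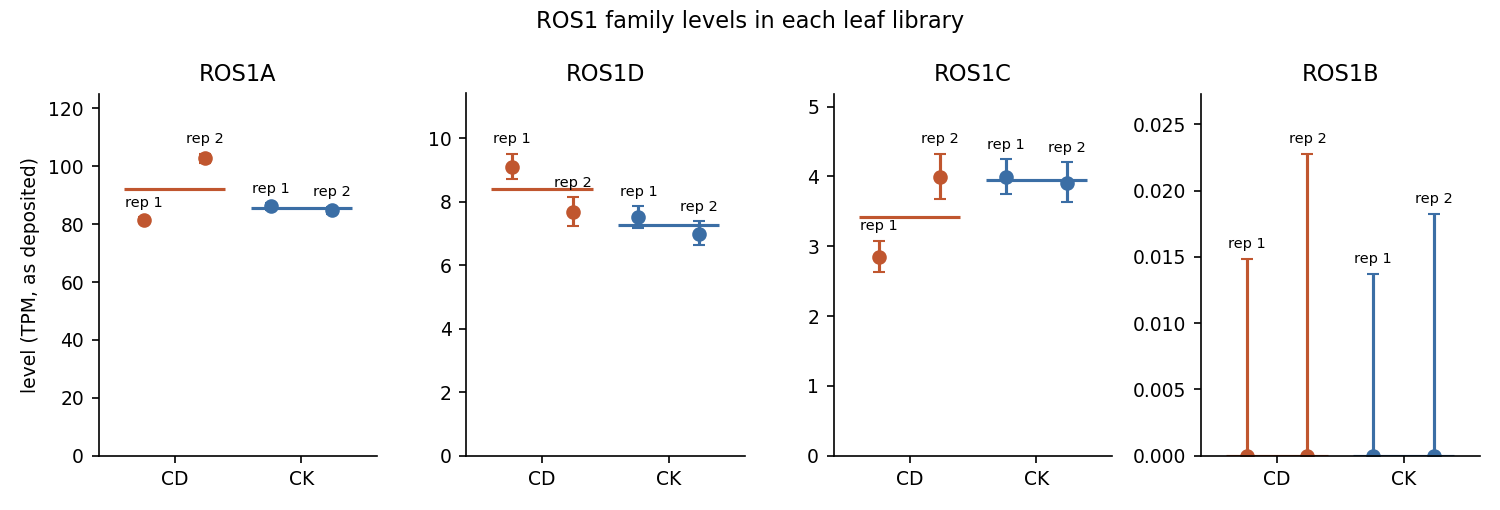
Level in TPM as deposited of each member in the CD and CK libraries, on linear axes with a separate scale for each gene. Points are libraries, error bars are exact 95% Poisson intervals on the read count (for ROS1B, the limit of 3 reads that a count of 0 allows), and horizontal lines are group means. ROS1A stands between 81.3 and 102.8 TPM, ROS1D between 7.003 and 9.11 TPM and ROS1C between 2.85 and 3.99 TPM, and ROS1B has 0 reads throughout.

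The order of levels, ROS1A above ROS1D above ROS1C above ROS1B, was the same in all 4 libraries, and no neighbours in that order overlapped over the libraries. ROS1A was 8.93 and 13.4 times as abundant as ROS1D in CD replicates 1 and 2, and 11.5 and 12.1 times in CK replicates 1 and 2. The summed TPM of the family was 93.3 and 114.5 in CD and 97.6 and 95.7 in CK, a mean of 103.9 ± 15.0 TPM in CD and 96.7 ± 1.36 TPM in CK (SD, n = 2 each). The CD replicates differed from each other by more than the group means did.

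None of the 3 members that could be tested differed between CD and CK past the threshold, over all 26271 genes tested by edgeR's quasi-likelihood test with Benjamini-Hochberg adjustment. That fit called 0% of all genes at an adjusted p of 0.05, so the lack of calls says little about the members by itself, and 8.7% of genes had an unadjusted p under 0.05. DESeq2 called 513 genes (1.95%) and no member. The estimates were near 0 for the more abundant members.

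ROS1A averaged 314.9 ± 57.2 CPM in CD and 317.0 ± 3.41 CPM in CK (SD, n = 2 each), a log2 fold change (CD minus CK) of -0.01 ± 0.20 (SE, edgeR adjusted p = 0.996). Its 95% interval ran from -0.52 to 0.50, that is from 0.697-fold to 1.42-fold. The sign depended on the scaling: it was positive with RLE or total count scaling, with DESeq2 and on TPM. Leaving out CD replicate 1 gave 0.17, and leaving out CD replicate 2 gave -0.21. In log2 CPM, CD replicates 1 and 2 were 0.37 apart for ROS1A and the CK pair 0.02.

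ROS1D averaged 24.3 ± 2.51 CPM in CD and 22.9 ± 1.14 CPM in CK, a log2 fold change of 0.09 ± 0.16 (edgeR adjusted p = 0.948, 95% interval -0.33 to 0.51). Leaving out CD replicate 1 turned it to -0.02, leaving out CD replicate 2 gave 0.19, and leaving out either CK library gave 0.14 or 0.04. On TPM with a pseudocount of 0.1 it was 0.20.

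ROS1C averaged 10.02 ± 2.53 CPM in CD and 12.5 ± 0.175 CPM in CK, a log2 fold change of -0.33 ± 0.23 (edgeR unadjusted p = 0.222, adjusted p = 0.796). Its 95% interval ran from -0.92 to 0.27, that is from 0.527-fold to 1.21-fold. It was the only member whose groups did not overlap in TMM-scaled CPM, a property that 38.4% of all genes tested had. The estimate rested on CD replicate 1: it was -0.09 without that library and -0.61 without CD replicate 2 (unadjusted p = 0.0352, adjusted p = 0.289). In size it exceeded the absolute log2 fold change of 63.0% of all genes tested, while that of ROS1A exceeded 2.85% and that of ROS1D 23.7%.

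The replicate spread of the members was uneven between the groups. In log2 CPM, the CD replicates were 0.52 apart for ROS1C and the CK replicates 0.03, and for ROS1D these gaps were 0.21 and 0.10. The median gap over all genes tested was 0.33 in CD and 0.23 in CK. A low value of ROS1C thus coincided with the library farthest out on component 1, which also had the lowest CAB2R level, and the part of that library's state in the result was not tested.

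The balance between ROS1C and ROS1D, which lie near each other on chromosome 5 but are not adjacent, differed in that same library. ROS1D took 76.0% of the reads of the pair in CD replicate 1 (exact Clopper-Pearson 95% interval 74.4% to 77.6%) and 65.6% in CD replicate 2 (63.3% to 67.8%), against 65.1% (63.3% to 66.9%) and 64.0% (61.8% to 66.1%) in CK replicates 1 and 2. These intervals cover counting error only and leave out the spread between libraries. CD replicate 1 had the highest share, and the other three lay close together. Per length, ROS1D was 3.2 and 1.93 times as abundant as ROS1C in CD and 1.89 and 1.79 times in CK. The sum of the pair was much alike, at 12.0 and 11.7 TPM in CD and 11.5 and 10.9 TPM in CK. With 2 libraries against 2, an exact two-sided permutation test cannot give a p under 0.333, so none is given for the ratio. Both CD ratios lay above both CK ratios, that of CD replicate 2 by a small margin, and whether the ratio differs between the groups was not tested.

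**Figure D3:**
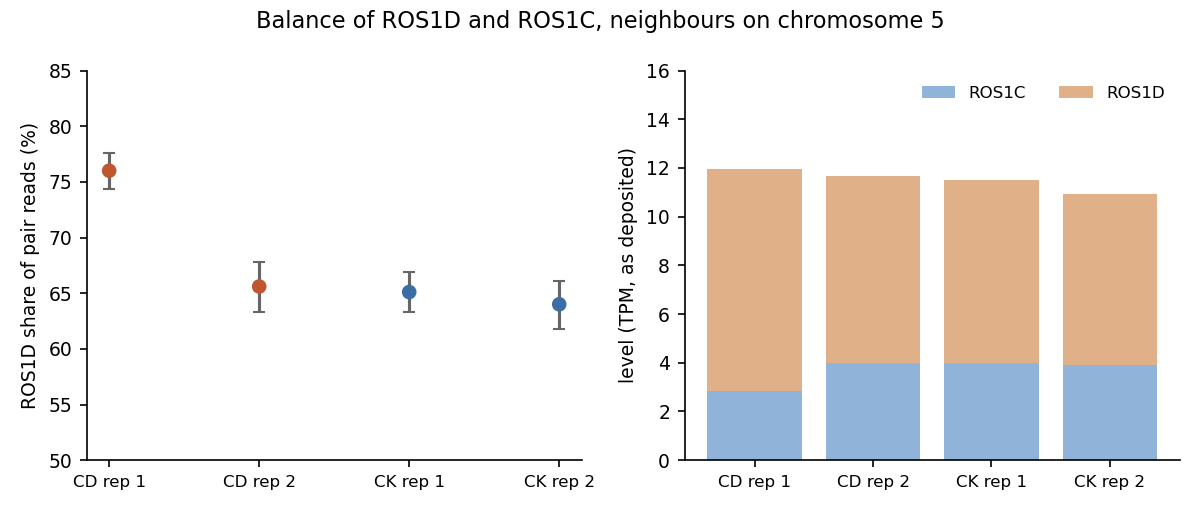
Left, the share of reads of the ROS1C and ROS1D pair that fell on ROS1D in each library, with exact 95% binomial intervals, on an axis that does not start at 0. Right, the level of both genes in TPM, stacked. CD replicate 1 has a ROS1D share of 76.0% against 64.0% to 65.6% elsewhere, while the sum of the pair lies between 10.9 and 12.0 TPM in all 4 libraries.

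The surroundings of the pair bear on how its reads could be counted. ROS1C and ROS1D are separated by 29848 bases. In this gap 4 genes lie entirely, of which 1 was expressed enough to be tested. That gene, LOC_Os05g37390, had 57.0 and 61.6 TPM in CD and 47.7 and 45.2 TPM in CK, a log2 fold change of 0.23 with an unadjusted edgeR p of 0.181. A further gene, LOC_Os05g37400, starts in the gap on the opposite strand and runs into the 3′ end of ROS1D. It shares 349 exon bases, or 6.36% of the exon length of ROS1D, over 4 of its exons. Whether counting used strand is not given in the sources used here, so reads in that stretch cannot be assigned to ROS1D with certainty. Whether ROS1C and ROS1D hold stretches alike enough for reads to be split or lost between them was not tested, since no sequence was used here. LOC_Os05g37400 itself had a log2 fold change of 0.01.

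No gene overlaps ROS1A, ROS1B or ROS1C in the table. Of the 10 genes nearest to ROS1B, 5 on each side, 6 had 0 counts in all libraries and 3 could be tested. Around ROS1A 3 of 10 had 0 counts and 7 could be tested. Around ROS1C 5 of 10 had 0 counts and 4 could be tested, and around ROS1D 2 of 10 and 6. ROS1C and ROS1D have some of these neighbours in common. Of all genes in the table, 37.7% had 0 counts in every library. None of the tested neighbours of any member had an unadjusted edgeR p under 0.05, against 8.7% of all genes tested. With so few neighbours tested, this lack says little about them.

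No change passed the test either in the partners of these enzymes that could be matched by symbol. Of 23 genes entered for the pathway, 8 were matched and all 8 were tested. edgeR and DESeq2 each called 0 of them, against 0% and 1.95% of all genes tested. None had an unadjusted edgeR p under 0.05, against 8.7% of all genes tested. With only 8 genes, this lack of calls says little about the partners. Of the 8, 7 had a log2 fold change above 0 and 1 below 0, where 49% of all genes tested lay. Their median was 0.08, against 0.01 for all genes tested. In 2 of the 8 the groups did not overlap in TMM-scaled CPM, against 38.4% of all genes.

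Among the genes of repair after base removal, XRCC1, the scaffold that holds the repair enzymes together, was at 10.7 and 13.0 TPM in CD and 9.15 and 9.47 TPM in CK. Its log2 fold change was 0.23 ± 0.21 (95% interval -0.30 to 0.76), and its groups did not overlap in CPM. Leaving out CD replicate 1 gave 0.38, and leaving out CD replicate 2 gave 0.07. FEN1A, the flap endonuclease, had 0.07 ± 0.16, and PCNA, the sliding clamp of DNA synthesis, 0.06 ± 0.16. PARP1, a poly(ADP-ribose) polymerase that senses strand breaks, had 0.10 ± 0.23, which was 0.34 without CD replicate 1 and turned to -0.18 without CD replicate 2.

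On the side that sets methylation, only 1 of the methyltransferases and chromatin remodellers entered was matched. Of the others, 4 had no record of the symbol and 4 had another span. The matched gene, DRM2, the de novo methyltransferase, had -0.06 ± 0.16, a sign that turned with total count scaling and on TPM. AGO4B, an argonaute that guides it by small RNA, was at 43.1 and 42.8 TPM in CD and 35.8 and 38.2 TPM in CK, with 0.09 ± 0.14, and its groups did not overlap in CPM either. Without CK replicate 1 it was at 0.05, and at 0.15 with CK replicate 2 left out instead. Its relative AGO4A had 0.05 ± 0.16. RDR2, the RNA polymerase that makes the double-stranded precursor, had 0.10 ± 0.19. On the level scale ROS1A, at 81.3 to 102.8 TPM over the 4 libraries, stood well above DRM2, at 28.5 to 33.4 TPM, and overlapped AGO4A, at 90.7 to 110 TPM. ROS1D and ROS1C lay below DRM2 in every library.

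**Figure D4:**
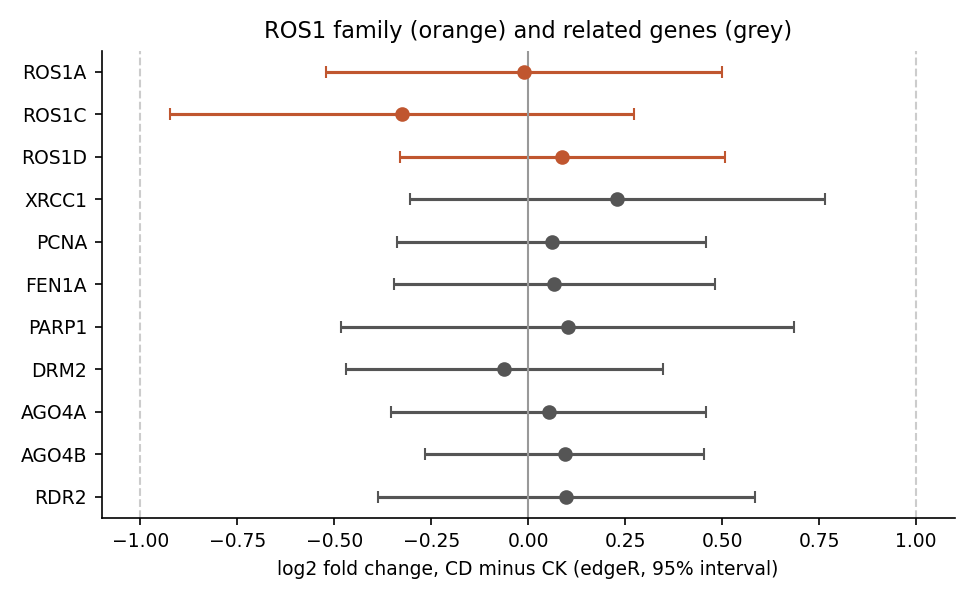
Log2 fold change (CD minus CK) of the 3 members tested and of the 8 matched pathway genes by edgeR, with 95% intervals, and dashed lines at -1 and 1. Every interval includes 0 and none reaches a 2-fold change, ROS1C having the lowest estimate at -0.33.

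The gene with the profile most like that of each member was taken from all genes tested, by the root mean square distance of centred log2 CPM over the 4 libraries. For ROS1C it was LOC_Os09g17610, on chromosome 9 from 10768866 to 10770611, at a distance of 0.0111. For ROS1A it was LOC_Os03g47949 (0.00603) and for ROS1D LOC_Os04g52960 (0.00841). No name is given here for these genes. Such closeness is common over 4 points: 2018 genes lay within 0.1 of ROS1A, 2049 within 0.1 of ROS1D and 386 within 0.1 of ROS1C. The distances among the members were 0.170 between ROS1A and ROS1C, 0.215 between ROS1A and ROS1D and 0.338 between ROS1C and ROS1D. The median distance to all genes tested was 0.273 for ROS1A, 0.337 for ROS1C and 0.267 for ROS1D, so ROS1C and ROS1D were about as far apart as ROS1C and the median gene.

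**Figure D5:**
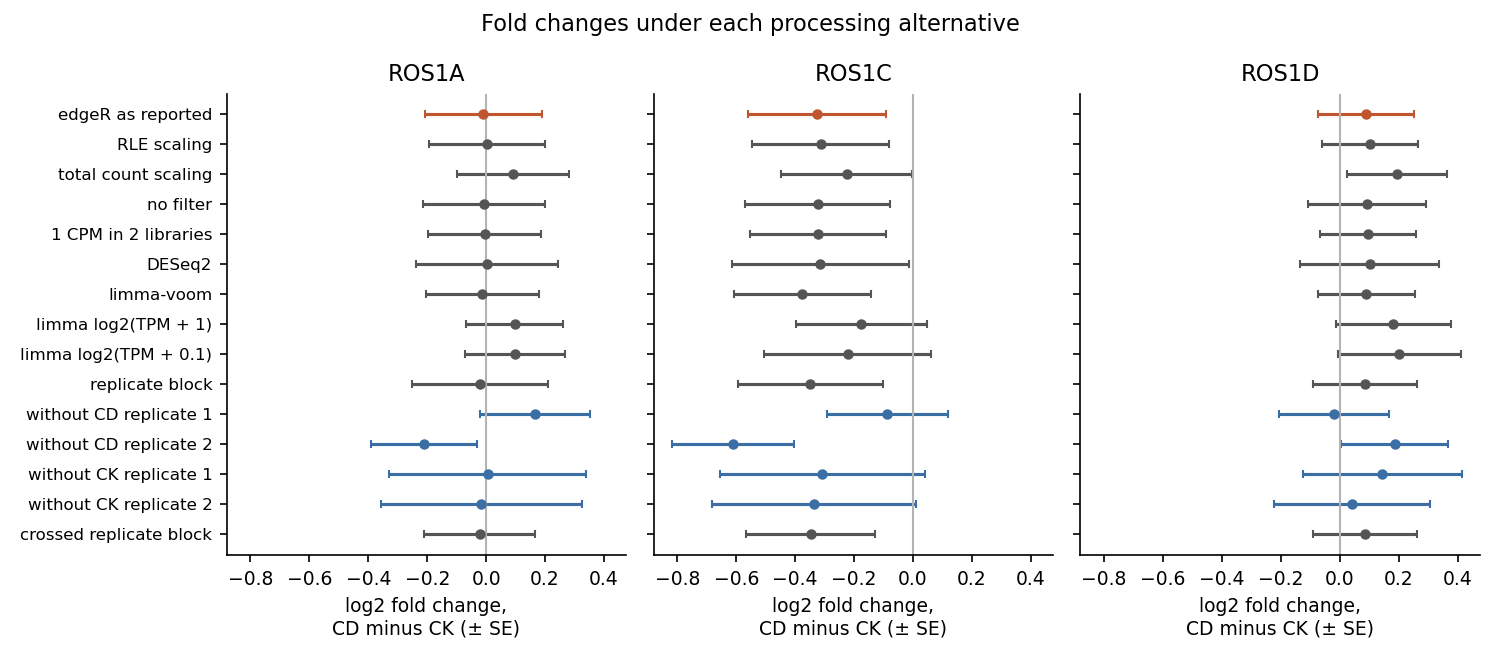
Log2 fold change (CD minus CK) of ROS1A, ROS1C and ROS1D under each processing alternative, with standard errors. Orange is the fit as reported and blue marks fits with 1 library left out. ROS1C stays below 0 throughout, from -0.61 to -0.09, ROS1A falls on both sides of 0, and ROS1D turns below 0 only without CD replicate 1.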

How the data were processed

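The authors deposited raw counts for each gene, unnormalized and with exon coordinates, in a featureCounts layout. Their deposited TPM values equal those recomputed here from counts and gene lengths within 3.6e-06. The submitters' processing notes name fastp 0.21.0, HISAT2 2.0.5 and featureCounts 1.6.4 without role or order. CD was compared with CK on all genes with edgeR 4.0.16 (R 4.3.3): TMM scaling, filterByExpr (26271 genes) and the quasi-likelihood test, with Benjamini-Hochberg adjusted p-values called under 0.05. Standard errors were derived from the F statistic, and 95% intervals from the t quantile of the fit. Of the 4 members, 3 passed the filter. DESeq2 1.42.0 and limma 3.58.1 served as alternatives. On simulated data only edgeR, DESeq2 and limma (on counts and on log2(TPM + 1)) were run, with the main scaling and filter. The other alternatives were not simulated. Members and lists were chosen with earlier results of these data known. All members and every matched pathway gene were named. Of 23 pathway entries, 9 had no record of their symbol in the RefSeq table, 5 had another span and 1 was absent from the count table. These 15 were left out of the pathway results and not named. A gene without a record of its symbol may be listed there under another name.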

Additional observations from a re-analysis of the deposited data

How the results depend on the processing

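Neither edgeR, DESeq2 nor limma called a member under any of the 14 alternatives run. ROS1C kept its direction in all of them, from -0.61 to -0.09 (log2), both ends coming from leaving out 1 library. ROS1A turned to 0.0029 with RLE scaling and with DESeq2, 0.0916 with total count scaling, 0.0971 on log2(TPM + 1) and 0.098 on log2(TPM + 0.1), and ranged from -0.21 to 0.17 with 1 library left out. ROS1D ranged from -0.0205 to 0.19 with 1 library left out. Total count scaling moved the median of all genes to 0.11 and log2(TPM + 0.1) to 0.12, so shifts of that size are shared by all genes. DRM2 turned to 0.0417 with total count scaling, 0.058 on log2(TPM + 1) and 0.0597 on log2(TPM + 0.1), and with 1 library left out ranged from -0.152 to 0.045. With 1 library left out, PCNA ranged from -0.0053 to 0.12, FEN1A from -0.0271 to 0.16, PARP1 from -0.18 to 0.34, AGO4A from -0.0249 to 0.14, AGO4B from 0.05 to 0.15, XRCC1 from 0.07 to 0.38 and RDR2 from -0.0611 to 0.29. The number of genes at an adjusted p under 0.05 was 29 with no filter and 513 with DESeq2, against 0 otherwise. The number at an unadjusted p under 0.05 was 2286, and 880 to 4106 with 1 library left out (880 without CK replicate 1, 1463 without CK replicate 2, 4106 without CD replicate 2); the cause was not tested. With the replicate number as a block, the members were at -0.02 (ROS1A), -0.35 (ROS1C) and 0.09 (ROS1D), and 1670 genes had an unadjusted p under 0.05. The labels do not say that numbers pair libraries, and same-numbered libraries deviated at a correlation of -0.141. A crossed pairing, added after seeing the data, gave 0 adjusted and 2922 unadjusted calls. ROS1B had 0 reads and gave no value under any alternative.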
